A study of Arabidopsis thaliana with 21 samples.

Results

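The genes that turn pyruvate into fatty acids and store them as oil were followed in late heart stage embryos of Arabidopsis thaliana. The set holds 40 loci, out of 26496 gene models with reads in at least 1 library, picked by locus identifier for their known roles, with earlier results of these data known. It comprises the regulator WRI1, 2 subunits of plastid pyruvate kinase, 6 of plastid pyruvate dehydrogenase, 4 of acetyl-CoA carboxylase and 8 genes of plastid fatty acid synthase. It further holds 4 genes of stearate desaturation, acyl release and activation, 3 genes of desaturation and elongation in the endoplasmic reticulum, 7 genes of oil assembly and 5 oil body proteins. All 40 had 1 model each in the files and passed the filter on low counts.

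There were 7 genotypes with 3 replicates each. The sample titles mark the replicates with br and a number, which may stand for biological replicate. How the replicates were separated is not described, so p-values measure the spread between these libraries, which may be technical. The wild types were Columbia-0, called Col-0, and Landsberg erecta, called Ler. The single mutants asil1-1 and asil2-1 and the double mutant asil1-1 asil2-1 were in Columbia-0, and asil2-2 was in Landsberg erecta. The double mutant asil1-1 asil2-2 was of mixed descent, labelled Columbia-0/Landsberg erecta, and which ecotype it carried at a given locus is not known here. ASIL1 and ASIL2 encode trihelix DNA-binding proteins known to repress seed maturation genes, and the comparisons ask whether their loss changes expression in an embryo that has not yet entered maturation. The sources used here do not describe the lesions of the alleles. Growth was at 22 °C under 16 h of light, and embryos were dissected by hand.

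Total counts per library ran from 1485767 to 8185801, with a median of 5742966, and the 40 genes took 0.38% to 1.14% of them. ASIL1 transcripts were at 1.28 to 5.75 counts per 1000000 scaled counts (CPM) in the 9 libraries carrying asil1-1, against 32.4 to 67.8 CPM in the 12 others. ASIL2 lay between 0 and 13.5 CPM in the 6 libraries with asil2-2, against 48.2 to 59.8 CPM in the 9 libraries without a mutant ASIL2. With asil2-1 it lay between 37.5 and 61.5 CPM, so its level did not check that label. Each of 16 embryo markers, 13 seed coat markers and 10 endosperm markers had reads, and 16, 13 and 7 of them passed the filter. The summed endosperm markers were at 75.8 to 193 CPM and the summed seed coat markers at 167 to 428 CPM, while the summed embryo markers were at 800 to 1791 CPM. An earlier look at these data found that 2 libraries stand apart. Replicate 1 of asil1-1 asil2-1 gave 45.7% of its counts to AT5G18610 and the lowest share to the 40 genes, and replicate 2 of asil1-1 asil2-2 was the shallowest library. The replicate 1 library was below both of its partners in 28 of the 40 genes (70%), against 48.3% of all tested models. Counts and calls that move by more than 1.5 times without these libraries are given both ways.

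In developing seeds, glycolysis delivers pyruvate to the plastid, where pyruvate kinase and pyruvate dehydrogenase supply acetyl-CoA. Acetyl-CoA carboxylase makes malonyl-CoA, the committed step, and fatty acid synthase extends an acyl chain on acyl carrier protein until thioesterases release it. In the endoplasmic reticulum the acyl chains are desaturated, elongated and joined to glycerol as triacylglycerol, which oleosins and caleosin coat as oil bodies. WRI1 is an AP2-type transcription factor that activates the glycolytic and plastid genes through a motif called the AW-box. The oil body and elongase genes belong to the maturation programme under the B3 factors LEC2, FUS3 and ABI3, which bind the RY motif.

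Known motifs were counted in the promoters as a description, with no test between roles. The window from 250 bases before to 50 after each annotated start was searched on both strands for the AW-box (CNTNG, 7 bases of any kind and CG), the RY motif (CATGCA), the G-box (CACGTG), a site of bZIP factors, and the GT element (GTGATT), which ASIL1 is known to bind. The AW-box was found in 10 of the 40 promoters (25%) and in 12.1% of 26071 promoters genome-wide. It lay in 7 of the 20 genes from pyruvate kinase to fatty acid synthase, 4 of them for pyruvate dehydrogenase, and in 3 of the 20 others, LACS9, LPLAT2 and caleosin. The RY motif was found in 9 of the 40 (22.5%), against 9.7% of all promoters. It lay in none of those 20 genes, in all 5 oil body genes, in FAE1, in LACS9 and in 2 oil assembly genes, ROD1 and PDAT. The G-box and the GT element each lay in 6 of the 40 (15%), against 7.92% and 18.4% of all promoters, and each in 3 of those 20 genes and 3 of the 20 others. A match describes the letters in the window and says nothing of binding. The sequences are those of the RefSeq assembly TAIR10.1, 30 bases each and 5′ to 3′ on the strand where the motif reads as above, with the motif in capitals. The first 3 are AW-boxes of plastid genes that were among the most abundant or are described below.
PDH-E1 ALPHA (chr1:49365-49394, minus strand): gaaaaaaaCATTGGTGTTAACGaagaaggg
KASI (chr5:18776768-18776797, minus strand): aaaaatttCCTCGAATAATTCGctgttttt
AT4G16155 (chr4:9157219-9157248, minus strand): catctccgCTTTGATATCTCCGcctccgct
The next are RY motifs of the 9 genes that held one, with 1 match printed for each but both for FAE1.
FAE1 (chr4:16494070-16494099, minus strand): tatactcaaactCATGCAtccatacacatt
FAE1 (chr4:16494100-16494129, minus strand): cgttttacaaagCATGCAtttagacatgtg
PDAT (chr5:4392957-4392986, minus strand): tgcaactCATGCAacaacaatactagtagg
ROD1 (chr3:5350584-5350613, plus strand): aatatatgttggCATGCAaggaaattcaaa
LACS9 (chr1:29152480-29152509, plus strand): tctgacaacggcCATGCAaataacctcttt
OLEO1 (chr4:12900293-12900322, plus strand): ctctcgttaacaCATGCAgcggctgcatgg
OLEO2 (chr5:16174875-16174904, minus strand): aaacttggaaatCATGCAaagccacacctc
OLEO3 (chr5:20819986-20820015, plus strand): tactcattaacaCATGCAacggctgcatga
OLEO4 (chr3:10243082-10243111, plus strand): atttttgtttcaCATGCAtgctgtccaatc
Caleosin (chr4:13475379-13475408, plus strand): gtgcgtggcggaCATGCAcgcgccgacgaa
The FAE1 gene held 2 RY motifs within its window, and OLEO1, OLEO2, OLEO3 and OLEO4 each also held more than 1. In PDAT the match lay downstream of the annotated start. The RY matches of OLEO4 overlapped each other, on opposite strands. The G-boxes of CAC3 overlapped its AW-box, and a G-box of FaTA overlapped its GT element.

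The level of each gene was compared with others as CPM per kilobase of transcript. In Col-0 the 20 genes from plastid pyruvate kinase to fatty acid synthase had a median of 170 CPM per kb, and 14 of them exceeded 100 CPM per kb. The median over all 18087 tested models with a length was 10.6 CPM per kb, and 719 of these exceeded 100. PDH-E1 ALPHA (AT1G01090, chromosome 1, 47234 to 49304), the alpha subunit of the pyruvate-decarboxylating enzyme, was highest at 469 ± 8.61 CPM per kb (SD, n = 3). FAD2 (AT3G12120, chromosome 3, 3860251 to 3863250), the oleate desaturase of the endoplasmic reticulum, followed at 402 ± 29.7 CPM per kb. The enoyl-ACP reductase MOD1 (AT2G05990, chromosome 2, 2322215 to 2325197), at 309 ± 14.5, and the biotin carboxylase CAC2 (AT5G35360, chromosome 5, 13584104 to 13588496), at 295 ± 5.68, led their roles.

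Oil assembly genes were lower, while FAD2 and OLEO3 were above most plastid genes. The 7 oil assembly genes had a median of 20.9 CPM per kb in Col-0 and none exceeded 49.3, the level of DGAT1 (TAG1, AT2G19450, chromosome 2, 8426117 to 8429853), which adds the last acyl chain of triacylglycerol. PDAT (AT5G13640, chromosome 5, 4392937 to 4397541), which takes that chain from a phospholipid, was lowest in its role at 8.19 ± 0.75 CPM per kb. Among the oil body genes, OLEO3 (AT5G51210, chromosome 5, 20820068 to 20820944) reached 204 ± 42 CPM per kb, while OLEO2, OLEO1 and OLEO4 were at 47.7 ± 13.2, 27.4 ± 13.2 and 16.9 ± 0.63 CPM per kb. The caleosin gene (ATS1, AT4G26740, chromosome 4, 13473516 to 13475371) was at 0.42 ± 0.21 CPM per kb and FAE1 (KCS18, AT4G34520, chromosome 4, 16494205 to 16495842), the enzyme that elongates oleic acid for seed oil, at 0.51 ± 0.26. In Col-0 the plastid genes were thus among the higher transcripts, while the elongase and caleosin transcripts were under 1 CPM per kb.

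**Figure D1:**
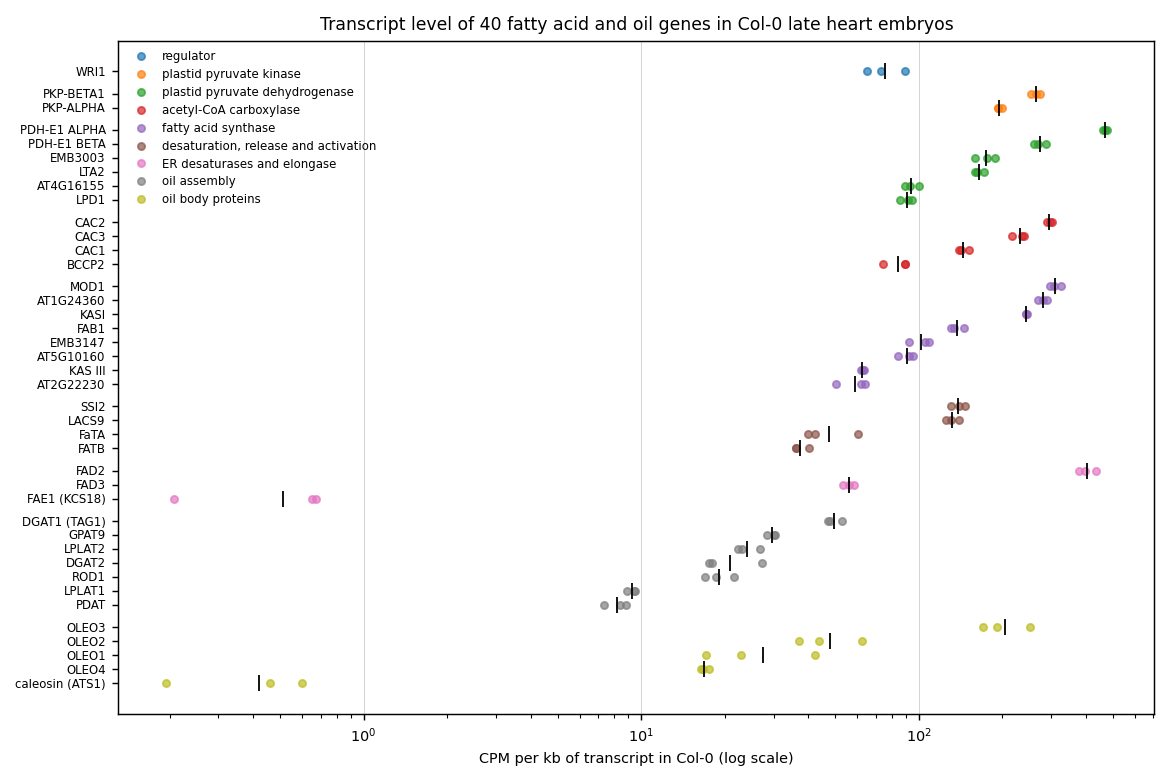
Level of the 40 genes in the 3 Col-0 libraries as CPM per kilobase of transcript on a log axis, grouped and coloured by role; each point is a library and the black bar the mean. The means of the 20 genes from pyruvate kinase to fatty acid synthase lie between 58.7 and 469 CPM per kb, those of the oil assembly genes between 8.19 and 49.3, and those of FAE1 and caleosin at 0.51 and 0.42.

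WRI1 (AT3G54320, chromosome 3, 20114488 to 20118745) was at 131, 107 and 95.5 CPM in replicates 1, 2 and 3 of Col-0, 125, 134 and 113 CPM in asil1-1, 139.7, 134 and 116 CPM in asil2-1 and 94.8, 113 and 113 CPM in asil1-1 asil2-1. It was at 137, 128 and 103 CPM in Ler, 142, 138 and 110 CPM in asil2-2 and 138, 107 and 112 CPM in asil1-1 asil2-2. Every mutant overlapped its wild type, Ler overlapped Col-0, and no comparison called WRI1. Among the comparisons of 2 genotypes the largest log2 fold change was that of asil2-1 against Col-0, at 0.22 ± 0.15 (SE).

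PDH-E1 ALPHA was at 891, 905 and 873 CPM in Col-0, 833, 1040 and 914 CPM in asil1-1, 947, 1061 and 1005 CPM in asil2-1 and 766, 1027 and 938 CPM in asil1-1 asil2-1. It was at 892, 937 and 876 CPM in Ler, 890.2, 943 and 1121 CPM in asil2-2 and 855, 742 and 918 CPM in asil1-1 asil2-2. All libraries were between 742 and 1121 CPM, and among the other genotypes only asil2-1 lay wholly above Col-0. PKP-BETA1 (AT5G52920, chromosome 5, 21463467 to 21466880), a plastid pyruvate kinase subunit, was at 607, 562 and 588 CPM in Col-0, 581, 648 and 609 CPM in asil1-1, 545, 659.5 and 662 CPM in asil2-1 and 328, 591 and 588 CPM in asil1-1 asil2-1. It was at 639, 651 and 643 CPM in Ler, 587, 657 and 634 CPM in asil2-2 and 603, 554 and 629.7 CPM in asil1-1 asil2-2. Ler lay wholly above Col-0, each mutant overlapped Col-0 or Ler, and the lowest value came from replicate 1 of asil1-1 asil2-1.

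CAC2 was at 587, 610.1 and 601 CPM in Col-0, 567, 609 and 585 CPM in asil1-1, 599, 663 and 656 CPM in asil2-1 and 228, 616 and 589 CPM in asil1-1 asil2-1. It was at 550, 559.5 and 548 CPM in Ler, 514, 548 and 571 CPM in asil2-2 and 568, 534 and 582 CPM in asil1-1 asil2-2. All 3 Ler libraries were below all 3 Col-0 libraries, at a log2 fold change of -0.12 ± 0.21 that was not called. This standard error takes in the spread of all 7 groups, not only of Ler and Col-0. Within genotypes the standard deviation of log2 CPM of CAC2 was 0.311, and 0.0535 without the libraries that stand apart. MOD1 was at 504, 520.3 and 553 CPM in Col-0, 493, 584 and 551 CPM in asil1-1, 495, 621 and 573 CPM in asil2-1 and 190, 539 and 517 CPM in asil1-1 asil2-1. It was at 579, 621 and 588 CPM in Ler, 544, 579 and 592 CPM in asil2-2 and 483, 425 and 533 CPM in asil1-1 asil2-2. Here all Ler libraries lay above all Col-0 libraries, again without a call. The stearoyl-ACP desaturase SSI2 (AT2G43710, chromosome 2, 18119873 to 18122889) was at 269.5, 257 and 239 CPM in Col-0, 279.5, 316 and 283 CPM in asil1-1, 318, 309 and 294 CPM in asil2-1 and 177, 290 and 267 CPM in asil1-1 asil2-1. It was at 259.8, 261 and 257 CPM in Ler, 281, 270.3 and 271 CPM in asil2-2 and 300.1, 305 and 241 CPM in asil1-1 asil2-2. Every library of asil1-1 and of asil2-1 was above every Col-0 library, every asil2-2 library was above every Ler library, and none of these differences was called. DGAT1 was at 109, 108 and 121 CPM in Col-0, 85.5, 108 and 114 CPM in asil1-1, 83.01, 125 and 117 CPM in asil2-1 and 47.2, 102 and 99.4 CPM in asil1-1 asil2-1. It was at 105, 118 and 117 CPM in Ler, 98.8, 113 and 113 CPM in asil2-2 and 86.9, 101 and 126 CPM in asil1-1 asil2-2. Of the mutants only asil1-1 asil2-1 lay wholly below its wild type, with its lowest value again in replicate 1.

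No gene of the set passed the test in asil1-1. The comparisons against Col-0 share its 3 libraries. None of the 40 genes was called in asil1-1 against Col-0, in edgeR's quasi-likelihood test with Benjamini-Hochberg adjustment over 18269 models at 0.05, where 0.0328% of all models were called. At an unadjusted p under 0.05 there was 1 gene, OLEO4 (2.48% of all models), and 2 genes had one, OLEO4 and SSI2, with both libraries that stand apart left out (7.52%), and DESeq2 and limma-voom also called 0 of the 40. The median log2 fold change was 0.04, with 26 genes above 0 (49.1% of all models). It was -0.01, with 18 genes above 0, without asil1-1 replicate 2. It was 0.07, 0.01 and 0.02 without Col-0 replicate 1, 2 and 3. The groups did not overlap in 4 of the 40 genes, with KASI, SSI2 and FAE1 higher and OLEO4 lower, where 13.8% of all models were apart. OLEO4 (AT3G27660, chromosome 3, 10243244 to 10245023), an oleosin, was at 24.4, 22.7 and 23.1 CPM in Col-0 and 13.9, 16.8 and 11.4 CPM in asil1-1. Its log2 fold change was -0.73 ± 0.26, with an adjusted p of 1 in edgeR. The summed endosperm markers were at 135 to 176 CPM in asil1-1, wholly above Col-0 (111 to 133 CPM), with 4 markers higher and 3 lower. The summed seed coat markers overlapped, at 287 to 360 CPM in asil1-1 and 227 to 298 CPM in Col-0. The summed embryo markers overlapped too, at 1329 to 1507 and 1499 to 1572 CPM. The part of these markers in the result was not tested.

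In asil2-1 nearly all genes of the set had a log2 fold change above 0, but none passed the test. Of the 40 genes 37 were above 0, with a median of 0.14, against 50.2% of all models. The exceptions were GPAT9, LPLAT1 and DGAT1, all of oil assembly. The count was also 37 under RLE scaling, DESeq2, limma-voom and without the 2 libraries that stand apart, and 35 when only the compared groups were fitted. Leaving out single libraries gave 33 to 37 genes and medians of 0.09 to 0.18, the lowest without asil2-1 replicate 2. None of the 40 was called, where 0.0109% of all models were, and at an unadjusted p under 0.05 there was 1, AT4G16155 (1.73% of all models). With both libraries that stand apart left out, 6 genes had one (6.61% of all models), all higher, PDH-E1 BETA, EMB3003, AT4G16155, SSI2, OLEO2 and OLEO3, and AT4G16155 had an adjusted p of 0.119 in edgeR. DESeq2 and limma-voom called 0 as well. The groups did not overlap in 10 genes, all higher, where 11.8% of all models were apart in either direction. They were PDH-E1 ALPHA, PDH-E1 BETA, EMB3003, LPD1 and AT4G16155 of pyruvate dehydrogenase, CAC1, KASI, AT5G10160, SSI2 and LACS9.

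The 6 pyruvate dehydrogenase genes, summed as CPM per kb, were at 1239 to 1299 in Col-0 and at 1358 to 1538 in asil2-1, without overlap. The 4 genes of stearate desaturation, acyl release and activation were also without overlap, at 331 to 382 in Col-0 and 400.1 to 419.9 in asil2-1. The summed levels of the other 7 roles overlapped, for fatty acid synthase at 1258 to 1310 in Col-0 and 1258 to 1510 in asil2-1. These sums were looked at after the genes' values were seen. AT4G16155 (chromosome 4, 9153570 to 9157133), a plastid dihydrolipoamide dehydrogenase, was at 171, 152 and 158 CPM in Col-0 and 199, 222 and 209 CPM in asil2-1. Its log2 fold change was 0.39 ± 0.17, with an adjusted p of 1 in edgeR. The summed embryo markers overlapped, at 1499 to 1572 CPM in Col-0 and 1397 to 1607 CPM in asil2-1. The summed endosperm markers were at 111 to 133 CPM in Col-0 and 123 to 165 CPM in asil2-1, and their part in the result was not tested. In bulk embryos, fewer cells of a type and less RNA per cell cannot be told apart.

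With the other ASIL2 allele the set was more evenly split. In asil2-2 against Ler, 23 of the 40 genes were above 0 (51% of all models), at a median of 0.03 on the log2 scale, and none was called where 0.0712% of all models were. That median was 0.00, 0.02, 0.06 and -0.02 without asil2-2 replicate 2 or 3 and Ler replicate 2 or 3. At an unadjusted p under 0.05 there were 2 genes, EMB3003 and LPLAT1 (2.58% of all models), and 3 without the libraries that stand apart, with PDAT (7.96%), and DESeq2 and limma-voom called 0. The groups did not overlap in 5 genes, with EMB3003, SSI2, LPLAT1 and OLEO1 higher and PKP-ALPHA lower, where 13% of all models were apart. The response to asil2-2 was then subtracted from that to asil2-1. The difference reuses the libraries of both comparisons and is no independent test of the asil2-1 result. None of the 40 genes was called, where 0.00547% of all models were, none had an unadjusted p under 0.05 (1.65% of all models), and DESeq2 and limma-voom also called 0. The difference was above 0 in 33 of the 40, with a median of 0.12, against 49.1% of all models, and the median was 0.08 without asil2-2 replicate 1. Without the libraries that stand apart AT4G16155, FAE1 and LPLAT1 had an unadjusted p under 0.05, 3 genes (5.97% of all models). The alleles were in different ecotypes, so allele and ecotype cannot be told apart in this difference.

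**Figure D2:**
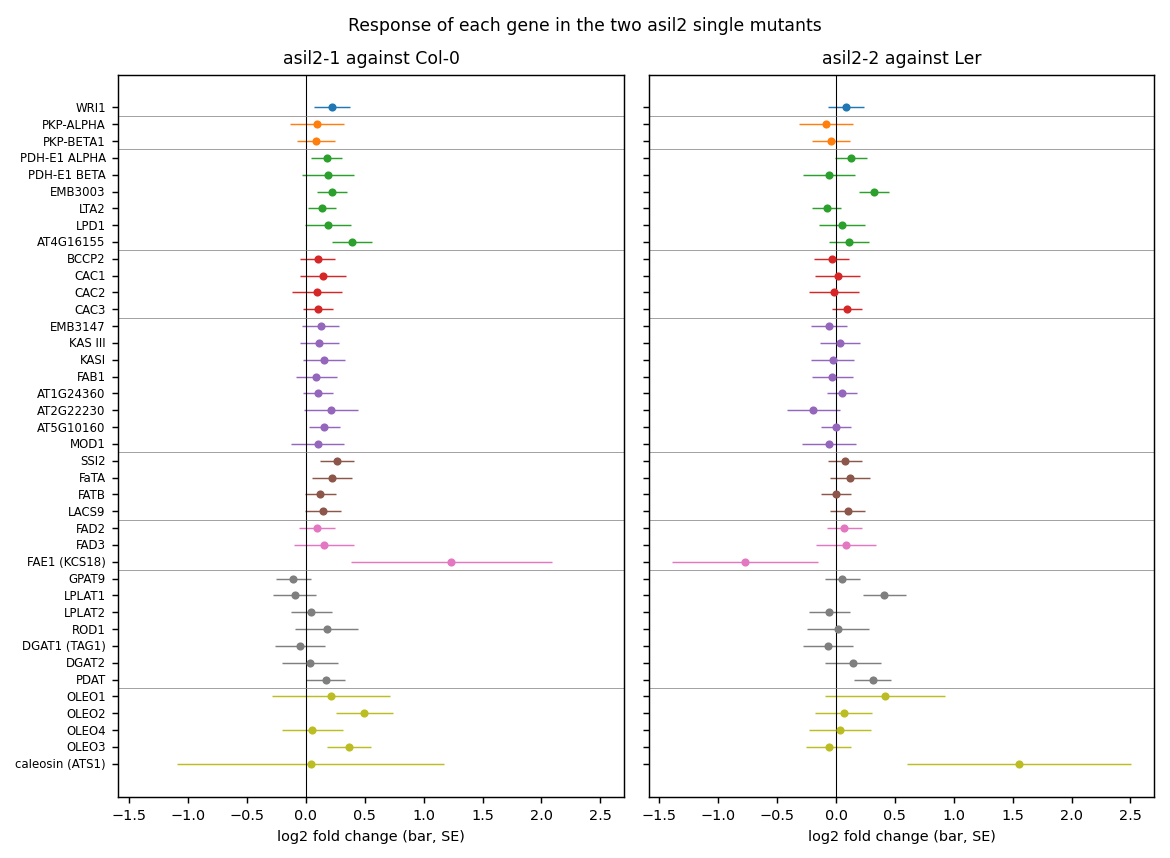
log2 fold change (points) and its standard error (bars) of each of the 40 genes, ordered and coloured by role, in asil2-1 against Col-0 (left) and asil2-2 against Ler (right). On the left 37 of 40 points lie to the right of 0 and on the right 23 of 40 do.

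In the Columbia-0 double mutant asil1-1 asil2-1 the set had no common direction that held without its replicate 1. None of the 40 genes was called against Col-0, where 0.0219% of all models were. With all libraries 12 genes were above 0 and 28 below (51.7% of all models above), and the median was -0.12 on the log2 scale. Without replicate 1 of asil1-1 asil2-1 the median was 0.01 and 25 genes were higher, and without both libraries that stand apart it was 0.02 with 25 higher. Without replicate 2 of asil1-1 asil2-1 it was -0.27, and in limma-voom it was 0.00. At an unadjusted p under 0.05 there were 2 genes, LPLAT1 and KAS III (16.1% of all models), and 4 without the libraries that stand apart, AT4G16155, LPLAT1, OLEO1 and OLEO3 (12.5%), while DESeq2 and limma-voom each called 1, LPLAT1. The groups did not overlap in 5 genes, with GPAT9 and LPLAT1 higher and KAS III, DGAT1 and OLEO4 lower, where 18.2% of all models were apart. Without the libraries that stand apart this count was 12, with 8 genes higher and 4 lower, where 32.1% of all models were apart. Added to the higher genes were PDH-E1 ALPHA, AT4G16155, CAC1, KASI, FATB and PDAT, and to the lower OLEO1.

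LPLAT1 (AT1G12640, chromosome 1, 4303280 to 4305907), an acyltransferase that moves acyl chains onto lysophospholipids, had the lowest p of the set in this comparison. It was at 17.3, 18.4 and 18.2 CPM in Col-0, 18.7, 14.98 and 21.5 CPM in asil1-1, 19.1, 14.95 and 16.3 CPM in asil2-1 and 35.9, 28.3 and 27.7 CPM in asil1-1 asil2-1. All 3 libraries of the double mutant lay above all 9 other Columbia-0 libraries. Its log2 fold change against Col-0 was 0.76 ± 0.18 (edgeR adjusted p = 0.132). Leaving out both libraries that stand apart gave 0.64 ± 0.17 (edgeR adjusted p = 0.126). DESeq2 gave an adjusted p of 0.00839 and limma-voom one of 0.0427, and over 13 settings the adjusted p ran from 0.00839 to 0.699. LPLAT1 was at 16.1, 14 and 11.8 CPM in Ler, 20.4, 16.6 and 18.7 CPM in asil2-2 and 23.7, 23.7 and 19.9 CPM in asil1-1 asil2-2. Both of these mutants lay above Ler without overlap, at 0.41 ± 0.18 and 0.67 ± 0.19 (adjusted p = 1 and 0.0586). Those comparisons share the Ler libraries. The gene overlaps AT1G12650 by 117 bases, and 4.31% of its 36-base words occur in that locus, so part of its reads may be shared. The summed seed coat markers were at 227 to 298 CPM in Col-0 and 287 to 413 CPM in asil1-1 asil2-1, with 10 of 13 higher and 3 lower. The summed embryo markers were at 1499 to 1572 CPM in Col-0. In asil1-1 asil2-1 they were at 800 CPM in replicate 1 and at 1377 and 1412 CPM in its partners. The summed endosperm markers were at 111 to 133 CPM in Col-0 and 106 to 193 CPM in asil1-1 asil2-1, with a middle value of 187. Of 7 endosperm markers 6 were higher and 1 lower. The part of these markers in the result was not tested.

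The ASIL1 effect was also taken over 6 against 6 libraries, asil1-1 and asil1-1 asil2-1 against Col-0 and asil2-1. It reuses libraries of the comparisons above and is no independent test of them. It subtracts asil2-1, where 37 of the 40 genes were above 0 against Col-0. That count was 26 in asil1-1, and in asil1-1 asil2-1 it was 12, or 25 without the libraries that stand apart. In the ASIL1 effect none of the 40 genes was called, where 0.0712% of all models were, and 4 had an unadjusted p under 0.05, LPLAT1, OLEO4, OLEO2 and KAS III (8.88% of all models). Without the libraries that stand apart 5 had one, LPLAT1 and the 4 oleosins (11%). Of the 40 genes 7 were above 0 (50.8% of all models), and 12 without the libraries that stand apart. The median was -0.11, which was -0.04 without replicate 1 and -0.19 without replicate 2 of asil1-1 asil2-1. The lowest adjusted p was 0.363, for LPLAT1 at 0.44 ± 0.13. DESeq2 called 0 and limma-voom called OLEO4, at -0.58 ± 0.19 in edgeR (adjusted p = 0.444). No gene of the set was without overlap between the 6 and the 6 libraries, where 0.728% of all models were, and with both libraries that stand apart left out 1 gene, OLEO4, was apart, lower (1.3%). The interaction of asil1-1 and asil2-1 called none of the 40, where 0.0109% of all models were called, and DESeq2 and limma-voom called 0. There 4 genes had an unadjusted p under 0.05, LPLAT1, OLEO2, SSI2 and OLEO3 (6.84% of all models), and 7 without the libraries that stand apart (8.48%). The interaction was above 0 in 7 genes and below in 33 (51% of all models above), with a median of -0.33. It also subtracts asil2-1 and reuses the same libraries. Leaving out both libraries that stand apart gave 8 above, 32 below and a median of -0.14.

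Against both wild types, the mixed double mutant asil1-1 asil2-2 had no called gene of the set, where 0.279% of all models were called. None had an unadjusted p under 0.05 against both (4.58% of all models), and without the libraries that stand apart 1 did, AT4G16155 (5.06%), and DESeq2 and limma-voom called 0. Every library lay above all 6 wild-type libraries in 3 genes, AT4G16155, LPLAT1 and caleosin, and below them in none, where 7.61% of all models were apart. Without the libraries that stand apart GPAT9 was added, making 4 (11.7% of all models). The summed seed coat markers were at 316 to 428 CPM in asil1-1 asil2-2, wholly above Col-0 (227 to 298 CPM) and Ler (213 to 283 CPM). The single seed coat markers were split: of 13, 10 were higher and 3 lower against Col-0, and 7 higher and 6 lower against Ler. The summed endosperm markers were at 132 to 182 CPM, against 111 to 133 CPM in Col-0 and 75.8 to 113 CPM in Ler. The summed embryo markers were at 1031 to 1518 CPM, overlapping Col-0 (1499 to 1572 CPM) and wholly below Ler (1539 to 1654 CPM). Their part in the result was not tested. AT4G16155 was at 173, 177 and 153 CPM in Ler and 201, 179.7 and 215 CPM in asil1-1 asil2-2. It was higher by 0.31 ± 0.17 against Col-0 and by 0.25 ± 0.17 against Ler. After both libraries that stand apart were left out it was the 1 gene called, at 0.32 ± 0.09 (adjusted p = 0.0425), where 0.791% of all models were called. Against Col-0 alone 1 gene was called, where 2.28% of all models were: PDAT rose by 0.80 ± 0.16 (adjusted p = 0.00891). Against Ler alone none was called, where 2.9% of all models were, and PDAT was at 0.29 ± 0.16 (adjusted p = 0.383). Leaving out both libraries that stand apart, 4 genes were called against Col-0, with PDAT, FAE1 and AT4G16155 higher and OLEO3 lower (5.29% of all models). Against Ler 2 were then called, AT4G16155 and LPLAT1, both higher (4.99% of all models), LPLAT1 at 0.65 ± 0.18 (adjusted p = 0.0353).

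**Figure D3:**
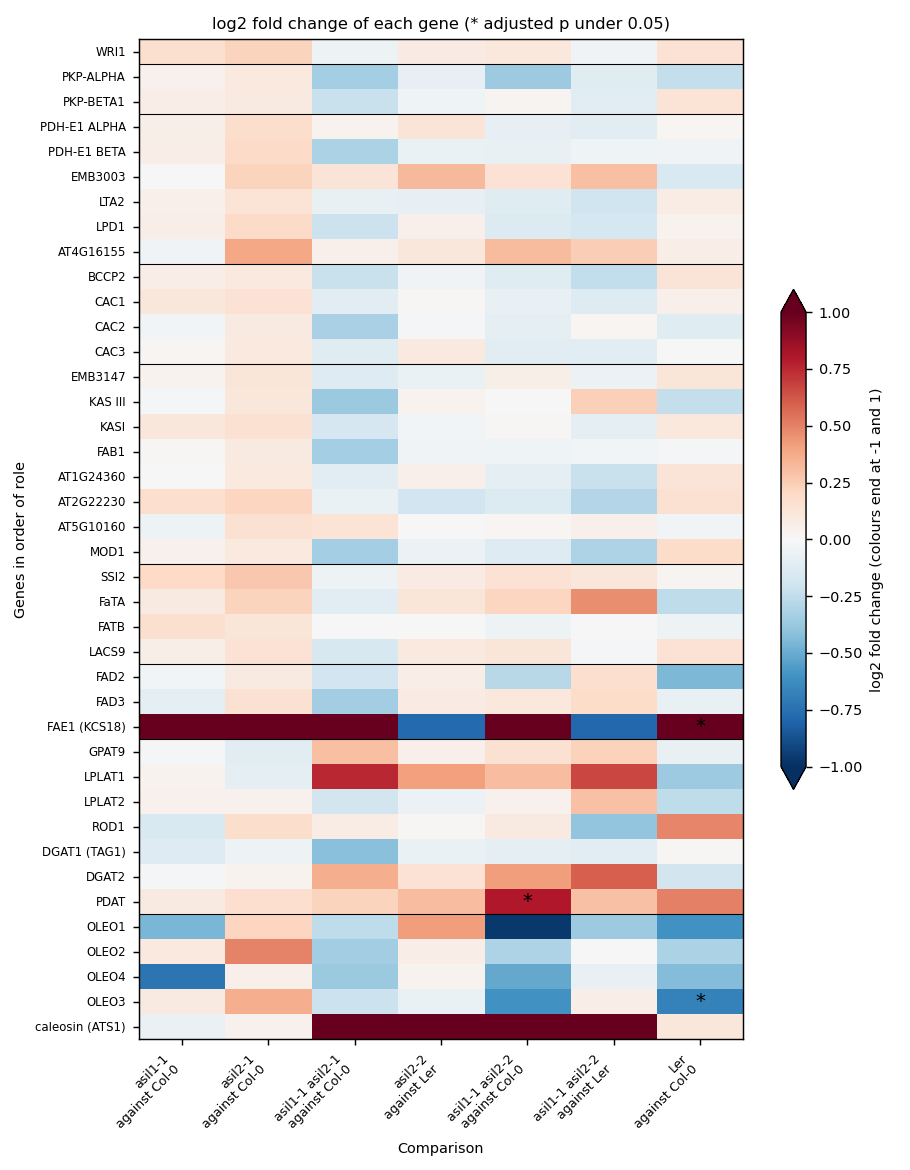
log2 fold change of the 40 genes (rows, in order of role) in 7 comparisons (columns), coloured from blue (lower) to red (higher), with colours ending at -1 and 1 and an asterisk at an adjusted p under 0.05. Asterisks stand at FAE1 and OLEO3 in Ler against Col-0 and at PDAT in asil1-1 asil2-2 against Col-0. The rows of FAE1 and caleosin rest on few counts.

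In Ler against Col-0, FAE1 rose and OLEO3 fell, 2 of 40 genes (5%), a share close to the 4.96% of all models that were called. Of all models 1.57% were called higher and 3.4% lower. The set was evenly split, with 21 genes above 0 (49.3% of all models), 19 below and a median log2 fold change of 0.01. The groups did not overlap in 14 of the 40 genes, 7 higher and 7 lower, where 30.4% of all models were apart. Of these, PKP-BETA1, KASI, AT1G24360, MOD1, FAE1, ROD1 and PDAT were higher, and PKP-ALPHA, CAC2, KAS III, FAD2, LPLAT1, OLEO4 and OLEO3 lower. An unadjusted p under 0.05 was found for 4 genes, FAE1, OLEO3, PDAT and FAD2 (14.8% of all models), and for 8 without the libraries that stand apart (25.6%).

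FAE1 had 5, 2 and 5 counts in replicates 1, 2 and 3 of Col-0 and 63, 64 and 44 counts in Ler. This is 1.11, 0.341 and 1.07 CPM in Col-0 and 11.7, 12.8 and 8.14 CPM in Ler. Its log2 fold change was 3.71 ± 0.79 (adjusted p = 0.00516), and over 13 settings it ran from 3.29 to 3.96 with an adjusted p of at most 0.045. FAE1 was at 1.70, 2.09 and 1.92 CPM in asil1-1, 0.619, 2.43 and 2.85 CPM in asil2-1 and 6.63, 0 and 1.28 CPM in asil1-1 asil2-1. Of these 9 libraries 8 were no higher than 2.85 CPM, and the highest was replicate 1 of asil1-1 asil2-1. It was at 4.89, 8.17 and 6.004 CPM in asil2-2 and 3.97, 8.56 and 7.07 CPM in asil1-1 asil2-2. Both genotypes had means between those of Col-0 and Ler.

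OLEO3 was at 192, 147 and 130.3 CPM in Col-0, 184, 184 and 130.2 CPM in asil1-1, 188, 247 and 170.3 CPM in asil2-1 and 169, 131 and 106.4 CPM in asil1-1 asil2-1. It was at 105, 106 and 83.1 CPM in Ler, 97.97, 93.6 and 90.1 CPM in asil2-2 and 88.4, 119 and 104 CPM in asil1-1 asil2-2. Of the 9 libraries with Landsberg erecta descent 8 lay below every Columbia-0 library, and the exception was the shallow replicate 2 of asil1-1 asil2-2. In Ler against Col-0 its log2 fold change was -0.67 ± 0.19 (adjusted p = 0.0438). The call was lost under RLE scaling (adjusted p = 0.0529) and with no filter on low counts (0.0541). It was also lost without Col-0 replicate 1 (0.272) or 2 (0.084) and without Ler replicate 1 (0.0916), 2 (0.0925) or 3 (0.232), and it was kept without Col-0 replicate 3 (0.0383).

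PDAT was at 24.6, 25.9 and 21.6 CPM in Col-0, 27.02, 25.3 and 24.5 CPM in asil1-1, 29.9, 27.1 and 23.97 CPM in asil2-1 and 24.97, 28.9 and 29.7 CPM in asil1-1 asil2-1. It was at 35.8, 36.8 and 29.97 CPM in Ler, 50.4, 40.2 and 36.5 CPM in asil2-2 and 47.2, 43.4 and 35.3 CPM in asil1-1 asil2-2. The 9 libraries with Landsberg erecta descent lay at 29.97 to 50.4 CPM and the 12 Columbia-0 libraries at 21.6 to 29.89 CPM. PDAT was the 1 gene of the set whose 9 and 12 libraries did not overlap, where 1.28% of all models were apart. In Ler against Col-0 its log2 fold change was 0.51 ± 0.16 (adjusted p = 0.0806). FAD2 was at 812, 739 and 703 CPM in Col-0, 766, 746 and 695 CPM in asil1-1, 831, 809.9 and 763 CPM in asil2-1 and 462, 769 and 746 CPM in asil1-1 asil2-1. It was at 555, 568 and 531 CPM in Ler, 611, 599.6 and 525 CPM in asil2-2 and 679.7, 587 and 591 CPM in asil1-1 asil2-2. Among the Columbia-0 libraries only replicate 1 of asil1-1 asil2-1 did not lie above all libraries with Landsberg erecta descent. In Ler against Col-0 its log2 fold change was -0.45 ± 0.15 (adjusted p = 0.104). Once both libraries that stand apart were left out, 5 genes were called in Ler against Col-0, FAE1 and PDAT higher and FAD2, OLEO3 and PKP-ALPHA lower, where 12.8% of all models were called. These same 5 genes were without overlap between the 8 and the 11 remaining libraries, where 3.38% of all models were. Those libraries include the Ler and Col-0 libraries that gave the calls, so this is no independent test. For OLEO3 the gap was small, from 106 to 106.4 CPM.

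**Figure D4:**
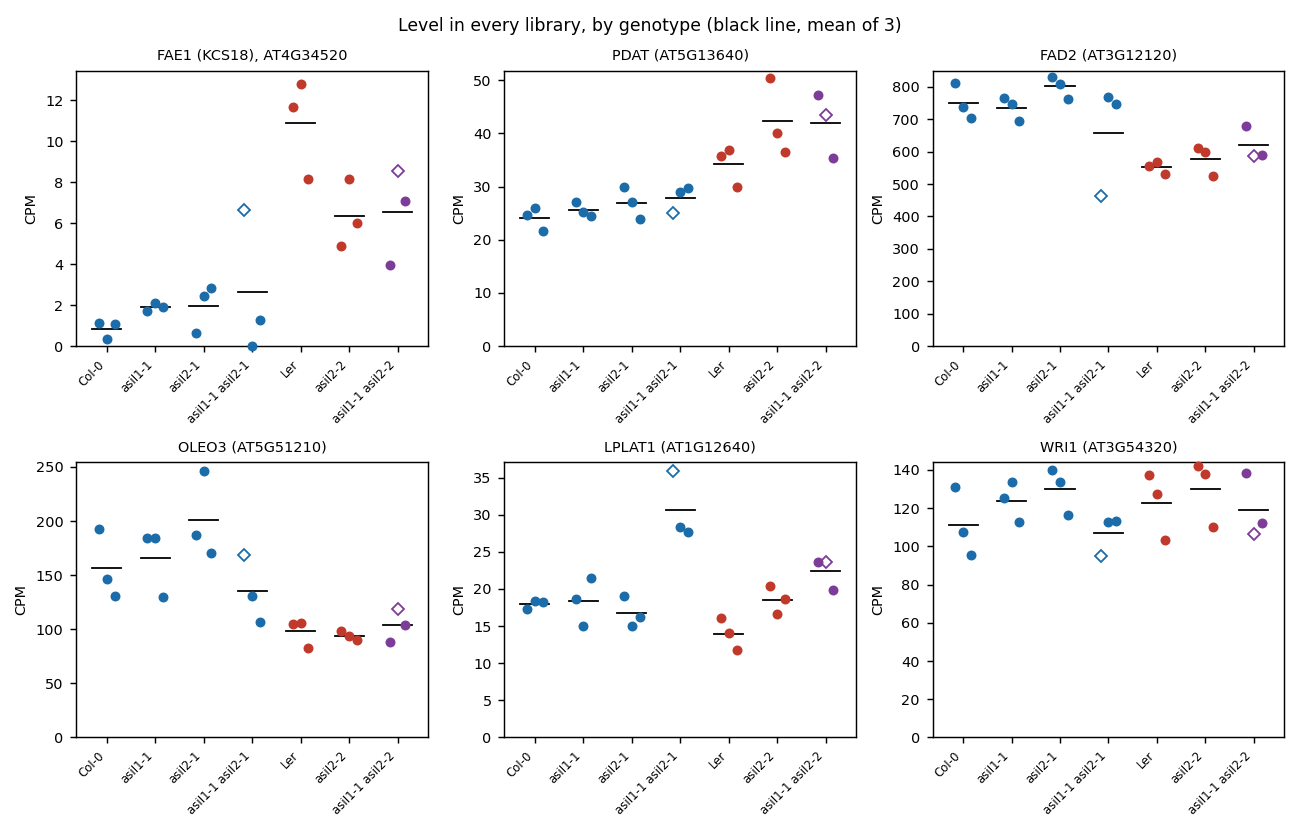
CPM of FAE1, PDAT, FAD2, OLEO3, LPLAT1 and WRI1 in each library by genotype, in Columbia-0 (blue), Landsberg erecta (red) and mixed (purple) background; black lines are means of 3 and open diamonds the 2 libraries that stand apart. PDAT is at most 29.89 CPM in the blue and at least 29.97 CPM in the other libraries, LPLAT1 is highest in asil1-1 asil2-1, and in WRI1 every mutant overlaps its wild type.

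A contrast of the ecotypes over wild type and asil2 mutants, Ler and asil2-2 against Col-0 and asil2-1, was added after these values were seen. It contains the Ler and Col-0 libraries of the comparison above and is no independent test of them. The median was -0.06, with 14 genes above 0 (50.4% of all models), and it was -0.04 without asil2-1 replicate 2 and -0.03 without Ler replicate 3. In it 5 of the 40 genes were called, 2 higher and 3 lower (12.5%), where 11.2% of all models were called, a share close to that of the set. Of all models 4.07% were called higher and 7.08% lower. An unadjusted p under 0.05 was found for 10 genes (22% of all models), for 15 without the libraries that stand apart (34.4%), and the groups did not overlap in 7 (10.7% of all models). Leaving out both libraries that stand apart, 11 were called (23.4% of all models). FAE1 rose by 2.70 ± 0.53 (adjusted p = 0.00104) and PDAT by 0.58 ± 0.11 (0.00103). OLEO3 fell by 0.89 ± 0.14 (7.79e-05), FAD2 by 0.46 ± 0.11 (0.00515) and OLEO2 by 0.53 ± 0.17 (0.0482). FAE1, PDAT, OLEO3 and FAD2 were called in all 19 settings, with an adjusted p of at most 0.0218. OLEO2 was lost with no filter (adjusted p = 0.0573) and without any 1 of 9 libraries: asil2-1 replicate 1 (0.0561) or 2 (0.163), asil2-2 replicate 1 (0.118) or 3 (0.112), Col-0 replicate 1 (0.174) or 3 (0.0652), and Ler replicate 1 (0.0557), 2 (0.0948) or 3 (0.131). The summed endosperm markers were at 75.8 to 113 CPM in Ler and 87.8 to 103 CPM in asil2-2, against 111 to 133 CPM in Col-0 and 123 to 165 CPM in asil2-1. The single endosperm markers were split, with 2 of 7 higher and 5 lower. The summed seed coat markers overlapped, at 213 to 283 CPM in Ler and 167 to 279 CPM in asil2-2. They were at 227 to 298 CPM in Col-0 and 270 to 300 CPM in asil2-1. The part of these markers in the result was not tested.

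The oil body genes varied more between replicates than most of the set. The standard deviation of log2 CPM within genotypes had a median of 0.35 over these 5 genes, against 0.23 over the 40 and 0.34 over all models. Once both libraries that stand apart were left out the medians were 0.34, 0.12 and 0.22, and the oil body genes had the highest of the 9 roles. With all libraries the 3 genes of desaturation and elongation in the endoplasmic reticulum were higher, at 0.41. Among the oil body genes the spread was then 0.25 for OLEO3, the most abundant, 0.35 for OLEO2 and 0.34 for OLEO4. It was 0.82 for OLEO1 and 0.83 for caleosin, the gene with the fewest counts. The part of transcript level in this spread was not tested. OLEO1 (AT4G25140, chromosome 4, 12900430 to 12901577), a major seed oleosin, was at 38.3, 15.5 and 20.8 CPM in Col-0, 23.8, 21.1 and 9.22 CPM in asil1-1, 19.8, 41.2 and 25.3 CPM in asil2-1 and 48.8, 9.33 and 9.51 CPM in asil1-1 asil2-1. It was at 18.3, 17.4 and 12.95 CPM in Ler, 19.7, 25.1 and 20.1 CPM in asil2-2 and 12.6, 3.29 and 17.9 CPM in asil1-1 asil2-2. Its highest and its lowest value both came from the libraries that stand apart, and no comparison called it.

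OLEO2 (AT5G40420, chromosome 5, 16173340 to 16174783) was at 57.8, 34.3 and 40.5 CPM in Col-0, 48.4, 57.1 and 36.1 CPM in asil1-1, 54.98, 80.2 and 51.6 CPM in asil2-1 and 35.9, 36.2 and 31.8 CPM in asil1-1 asil2-1. It was at 40.6, 35.4 and 30.2 CPM in Ler, 31.98, 45.4 and 33.6 CPM in asil2-2 and 35.4, 20.4 and 46.02 CPM in asil1-1 asil2-2. OLEO4, whose Col-0 and asil1-1 values stand above, was at 20.3, 27.7 and 24.98 CPM in asil2-1, 22.6, 15.5 and 16.9 CPM in asil1-1 asil2-1, 19.8, 13.2 and 18.7 CPM in Ler, 12.9, 16.6 and 23.9 CPM in asil2-2 and 11.2, 13.2 and 23.5 CPM in asil1-1 asil2-2. In asil2-1, replicate 2 held the highest value of all 4 oleosins. In Col-0 replicate 1 did. This was not particular to the oleosins. In asil2-1, replicate 2 was also highest in every pyruvate dehydrogenase gene, though not in PKP-BETA1. In Col-0, replicate 1 was also highest in PKP-ALPHA and PKP-BETA1, though not in PDH-E1 ALPHA.

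Caleosin was at 0.664, 0.511 and 0.214 CPM in Col-0, 1.19, 0.123 and 0.128 CPM in asil1-1, 0.155, 1.01 and 0.335 CPM in asil2-1 and 5.07, 1.10 and 0.284 CPM in asil1-1 asil2-1. It was at 0.556, 0.200 and 0.740 CPM in Ler, 1.91, 0.705 and 1.95 CPM in asil2-2 and 1.55, 1.32 and 0.986 CPM in asil1-1 asil2-2. It had 103 counts over the 21 libraries and between 1 and 16 in each, so its levels are imprecise, and no comparison called it.

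**Figure D5:**
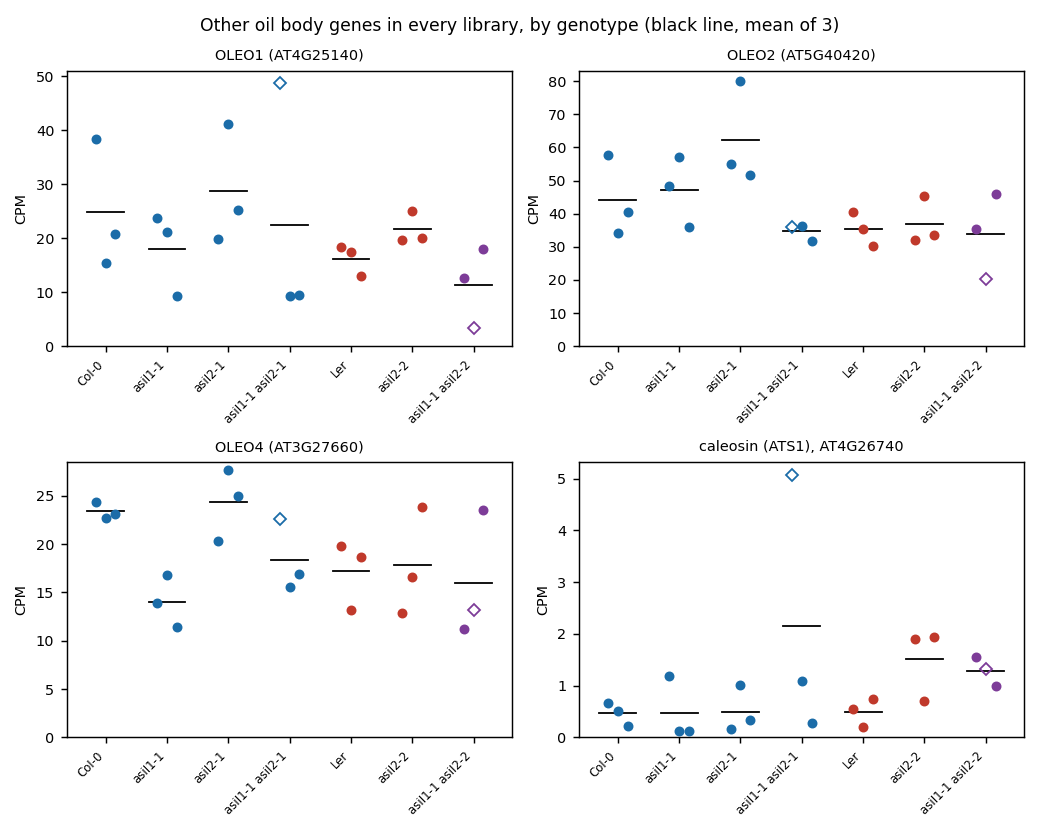
CPM of OLEO1, OLEO2, OLEO4 and caleosin in each library by genotype, in Columbia-0 (blue), Landsberg erecta (red) and mixed (purple) background; black lines are means of 3 and open diamonds the 2 libraries that stand apart. OLEO1 spans 3.29 to 48.8 CPM, with both ends in those 2 libraries, and OLEO4 is lower in all 3 asil1-1 libraries than in Col-0.

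The wider pathway was read from 30 further plastid genes, 31 further genes of the endoplasmic reticulum and oil bodies, of which 28 were tested, and 8 further regulators. None was called in asil1-1, asil2-1 or asil1-1 asil2-1 against Col-0, in asil2-2 against Ler, or in asil1-1 asil2-2 against both wild types. In Ler against Col-0, where 4.96% of all models were called, 2 of the 30 plastid genes rose, and 0 of 28 and 0 of 8 of the others were called. Without the libraries that stand apart these counts were 3, 4 and 1, all higher, where 12.8% of all models were called, and the regulator was FUS3 at 0.58 ± 0.14 (adjusted p = 0.00831). The acyl carrier protein gene ACP5 (AT5G27200) was at 23.9, 24.7 and 24.8 CPM in Col-0 and 96.9, 102 and 87.9 CPM in Ler, a log2 fold change of 1.97 ± 0.26 (adjusted p = 3.78e-05). It was at 81.7, 120.1 and 111 CPM in asil2-2 and 30.2, 38.8 and 73.6 CPM in asil1-1 asil2-2, and the latter differed from Ler by -0.98 ± 0.25 (adjusted p = 0.0371), a call lost without the libraries that stand apart. The palmitate desaturase gene FAD5 (AT3G15850) was at 21.03, 18.6 and 19.1 CPM in Col-0 and 32.4, 27.2 and 34.04 CPM in Ler, a log2 fold change of 0.68 ± 0.18 (adjusted p = 0.0268). In Ler both genes lay wholly above Col-0.

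In asil1-1 asil2-2 against Col-0 alone, where 2.28% of all models were called, the acyl-ACP desaturase gene AT5G16230 rose and the lysophosphatidyl acyltransferase gene LPAT5 (AT3G18850) fell. AT5G16230 was at 1.99, 3.07 and 2.57 CPM in Col-0 and 5.87, 28.96 and 8.38 CPM in asil1-1 asil2-2, with its highest value in the shallow replicate 2, and its log2 fold change was 2.36 ± 0.61 (adjusted p = 0.043). Without that library and the other that stands apart it was 1.48 ± 0.35 (adjusted p = 0.0135). ACP5 was then called too, at 1.10 ± 0.28 (adjusted p = 0.021), and against Ler the acyl-CoA synthetase gene LACS2 (AT1G49430), at -0.48 ± 0.11 (adjusted p = 0.0118). LPAT5 was at 18.8, 14.5 and 20.1 CPM in Col-0 and 6.91, 7.24 and 10.5 CPM in asil1-1 asil2-2, a log2 fold change of -1.08 ± 0.27 (adjusted p = 0.0363). In the added ecotype contrast, where 11.2% of all models were called, ACP5 rose by 1.90 ± 0.18, FAD5 by 0.49 ± 0.12 and LACS2 by 0.40 ± 0.13, while LPAT5 fell by 0.68 ± 0.18 and a further acyl-ACP desaturase gene, AT5G16240, by 0.46 ± 0.13. With all libraries no further regulator was called in any of these comparisons. In the ecotype contrast without the libraries that stand apart, 5 of 30, 8 of 28 and 1 of 8 were called, where 23.4% of all models were.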

How the data were processed

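Embryo RNA of 7 genotypes was sequenced, with 3 libraries each. The deposited values were raw read counts per gene model, and the submitters' processing notes name Bowtie 0.12.7, edgeR 3.0.8 and the build TAIR10 without saying what each did. How reads were counted, and whether by strand, is not given in the sources read, so reads of overlapping genes cannot be told apart: 14 of the 40 genes overlap another gene and 14 share 36-base words with another locus. TAIR10 is a Columbia-0 assembly, and sequence differences of Ler were not analysed here. Their part in the differences between the ecotypes was not tested.

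Counts of 26496 models were fitted in 1 model with 7 groups with edgeR 4.0.16 in R 4.3.3 (TMM scaling, filterByExpr with a minimum count of 10 and total of 15, quasi-likelihood F test, Benjamini-Hochberg adjustment over all 18269 models that passed, threshold 0.05). All adjusted p-values in the text are from this test unless another tool is named. Standard errors were computed as the size of the log2 fold change over the root of F. CPM are TMM-scaled. Lengths, coordinates and promoters came from RefSeq TAIR10.1, to which 26100 models matched. Against both wild types, the mixed double mutant was called where it passed against each in the same direction, and the comparison nearer to 0 is given. The steps were tested on simulated counts.

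Alternatives were RLE scaling, no filter, DESeq2 1.42.0, limma-voom (limma 3.58.1) with library weights, only the compared groups, the replicate number as a block, leaving out 2 libraries and leaving out each replicate. The replicate numbers were not taken to pair the samples, and whether libraries with the same number shared a batch is not known. The members and gene lists were chosen with earlier results of these data known. Named were WRI1, called genes, the highest gene per length of each role, FAE1, the oleosins and caleosin; LPLAT1 and AT4G16155 were added after their values were seen. The ecotype contrast was also added after the values were seen. None of 210 pairs of libraries was identical.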

Additional observations from a re-analysis of the deposited data

How the results depend on the processing

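The genes followed through the alternatives were those called in the main test or an alternative, fits without a single library aside. Choosing called genes favours a stable direction. None of these genes changed its direction, while medians near 0 did, as given above. Of the 40 genes, the count called stayed at 0 under every alternative run in asil1-1 and asil2-1 against Col-0, asil2-2 against Ler, the interaction and the difference between the ASIL2 alleles. In asil1-1 asil2-1 against Col-0 it was 0, but 1 in DESeq2 and 1 in limma-voom (LPLAT1). For the ASIL1 effect it was 0, but 1 in limma-voom (OLEO4, adjusted p = 0.023). In asil1-1 asil2-2 against both wild types it was 0, but 1 when both libraries that stand apart were left out. In Ler against Col-0 it was 2, but 1 under RLE scaling, 1 with no filter, 4 in DESeq2, 5 in limma-voom, 5 without the libraries that stand apart and 6 with only the compared groups, and 1 to 2 when each replicate was left out. In the ecotype contrast it was 5, but 12 in limma-voom, 11 without the libraries that stand apart and 12 with only the compared groups, and 4 to 5 when each replicate was left out. With a replicate block 3 genes were called in Ler against Col-0, 5 in the ecotype contrast and 0 elsewhere. Calls among all models also rose after both of those libraries were dropped, from 4.96% to 12.8% in Ler against Col-0. The ecotype contrast went from 11.2% to 23.4% of all models. For the other alternatives no share of all models is given, so their counts cannot be set against the background. Of 63 pairs of libraries with the same number, 21 had deviations from their group means correlated over 0.1 (-0.122 to 0.334). The numbers were not taken to pair the samples, though these correlations cannot show that no batch was shared. All 7 groups shared 1 estimate of the spread, so libraries outside a comparison enter its standard errors. The root of the common dispersion was 0.216 with all libraries and 0.132 without the 2 that stand apart. The median standard error of the 40 genes was 0.175 and 0.097 in Ler against Col-0, which holds neither library. In asil1-1 against Col-0 it was 0.174 and 0.096. The cause of the changes in calls between settings was not tested. Depth limits FAE1 and caleosin, with few counts per library.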
